A study of Mus musculus with 8 samples.

Results

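CpG-rich protein-coding promoters were studied in alveolar macrophages (AMs), the resident macrophages of the lung airspaces, that had or lacked retinoid X receptors (RXRs). Open chromatin was profiled by ATAC-seq, which relies on a transposase that cuts accessible DNA and leaves sequencing adapters there. Of the 8 libraries, 4 came from Cd11cCre+ Rxrab fl/fl mice (KO), in which Cre driven by the Cd11c promoter removes the floxed parts of Rxra and Rxrb, and 4 came from Rxrab fl/fl littermates without Cre (WT). All animals were adult and all carried the floxed alleles of both genes. CD11c is also made by dendritic cells and some other macrophages, so the deletion is not restricted to AMs in the animal. No agent was given. The authors supplied a list of accessible regions (peaks) for each library, and peaks of the 8 lists that shared a base were merged. A merged autosomal region counted as a CpG-rich promoter if 2 or more libraries had a peak in it, its summit lay within 1 kb of a transcription start site (TSS) of a protein-coding gene, and the 501 bp round the summit had a GC content over 55% and a CpG observed/expected ratio over 0.6. This rule gave 9026 regions, 12.4% of the 72711 merged regions that at least 2 libraries shared. They were compared with 5237 protein-coding promoters that missed the GC or CpG limit (CpG-poor promoters) and with 45533 distal regions over 5 kb from any coding or long noncoding TSS.

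Most vertebrate promoters of widely used genes lie in CpG islands, stretches where the CpG dinucleotide has escaped the loss that follows DNA methylation. Such promoters are usually unmethylated, carry many sites for ubiquitous factors such as SP/KLF proteins and NFY, and stand open in most cell types. Cell-type programmes, including those run by RXR and its partners in macrophages, are mostly attributed to distal enhancers and to CpG-poor promoters, which open in few cell types. RXRs are nuclear receptors that bind DNA in pairs with other receptors, such as the liver X receptors and PPARγ, and control lipid genes.

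The sequences at the summits show what the rule selects. Each line below gives 151 bases of the plus strand of GRCm38 (mm10) centred on the summit, taken from the RefSeq assembly, with every CpG in capitals. The promoters of the deleted genes come first. The single region at Rxrb is shared with Slc39a7, a zinc transporter gene read in the opposite direction.
Rxra (chr2:27677021-27677171): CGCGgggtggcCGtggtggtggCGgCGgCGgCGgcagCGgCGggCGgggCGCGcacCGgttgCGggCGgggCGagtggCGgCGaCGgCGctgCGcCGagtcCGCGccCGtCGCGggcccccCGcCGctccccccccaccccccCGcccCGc
Rxrb and Slc39a7 (chr17:34031647-34031797): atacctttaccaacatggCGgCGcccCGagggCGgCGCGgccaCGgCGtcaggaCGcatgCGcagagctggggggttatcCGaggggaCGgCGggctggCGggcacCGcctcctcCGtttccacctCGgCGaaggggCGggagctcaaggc
The 151 bases shown held 31 CpGs at Rxra and 19 at Rxrb and Slc39a7. The next pair are promoters whose accessibility was lower in KO, among those with the smallest adjusted p.
Plcl1 (chr1:55405759-55405909): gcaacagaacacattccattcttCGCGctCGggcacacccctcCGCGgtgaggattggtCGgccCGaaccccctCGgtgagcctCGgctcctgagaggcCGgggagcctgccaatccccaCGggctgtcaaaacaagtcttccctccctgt
Pmepa1 (chr2:173276530-173276680): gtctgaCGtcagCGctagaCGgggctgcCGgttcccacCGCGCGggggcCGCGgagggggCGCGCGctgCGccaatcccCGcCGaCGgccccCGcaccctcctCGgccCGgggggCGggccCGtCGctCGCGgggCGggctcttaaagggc
These are followed by the 3 that were higher in KO with the smallest adjusted p.
Fam20c (chr5:138754891-138755041): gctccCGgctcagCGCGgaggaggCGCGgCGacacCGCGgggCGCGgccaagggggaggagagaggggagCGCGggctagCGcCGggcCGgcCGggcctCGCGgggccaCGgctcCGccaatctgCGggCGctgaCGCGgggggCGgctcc
Sash1 (chr10:8885975-8886125): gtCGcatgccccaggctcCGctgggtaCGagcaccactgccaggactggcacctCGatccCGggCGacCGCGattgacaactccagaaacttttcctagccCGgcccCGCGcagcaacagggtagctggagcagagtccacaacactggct
Elovl7 (chr13:108214249-108214399): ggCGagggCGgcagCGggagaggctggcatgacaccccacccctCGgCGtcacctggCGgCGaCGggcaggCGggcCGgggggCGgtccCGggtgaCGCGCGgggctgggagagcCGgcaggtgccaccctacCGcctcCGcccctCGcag
The last pair sets the most accessible CpG-rich promoter, Pja2, beside the most accessible CpG-poor one, Stt3a.
Pja2 (chr17:64332041-64332191): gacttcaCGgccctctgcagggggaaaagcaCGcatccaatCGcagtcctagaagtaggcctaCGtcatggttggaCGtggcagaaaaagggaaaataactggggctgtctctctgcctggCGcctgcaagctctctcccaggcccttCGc
Stt3a (chr9:36767775-36767925): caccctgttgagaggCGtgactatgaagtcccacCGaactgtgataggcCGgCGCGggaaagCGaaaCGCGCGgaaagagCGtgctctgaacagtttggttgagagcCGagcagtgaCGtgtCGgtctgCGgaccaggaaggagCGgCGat
Around the Pja2 summit the wider window of 501 bp had a GC content of 69.5%, with 52 CpGs. The Stt3a window had 54.1% and 38 CpGs, and it missed the rule by its GC content alone, since its CpG ratio was 1.06. The 151 bases held 11 and 25 CpGs at Plcl1 and Pmepa1, and 25, 11 and 19 at Fam20c, Sash1 and Elovl7.

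CpG-rich promoters were the most widely shared of the 3 classes of region. A peak was present in all 8 libraries at 8070 of 9026 (89.4%), against 73.0% of CpG-poor promoters and 60.1% of distal regions. Their median width was 725 bp, compared with 472 and 397 bp. The median window held 44 CpGs, against 14 and 6, which follows from the rule. Summit height was expressed as scaled tags, the number of read ends overlapping the summit after each library had been brought to a common median. The median was 132.5 scaled tags in CpG-rich promoters with a peak in all libraries (quartiles 73.9 and 222.8), 87.6 in CpG-poor promoters and 52.3 in distal regions. Heights also varied less between replicates, with a median SD on the log2 scale of 0.118 in KO and 0.142 in WT, against 0.181 and 0.185 in distal regions. Taller summits rest on more tags, which lowers counting error.

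The regions marked 8365 different nearest genes, and 9257 protein-coding genes had a TSS within 1 kb. At 917 (10.2%) the genes nearby were read in opposite directions, as at Rxrb and Slc39a7, and 4755 (52.7%) covered several annotated TSS positions. The summit lay at a median of 23 bp upstream of the nearest TSS (quartiles 71 bp upstream and 27 bp downstream), and 63.9% of summits were upstream. A distance under 100 bp was found for 65.3% of CpG-rich promoters and 39.4% of CpG-poor promoters. By annotation, 47.9% of summits fell outside the gene, 33.8% in an exon and 18.3% in an intron. The 956 regions that lacked a peak in 1 or more libraries were narrower, with a median of 357.5 bp, and only 37.6% of their summits were within 100 bp of a TSS.

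**Figure D1:**
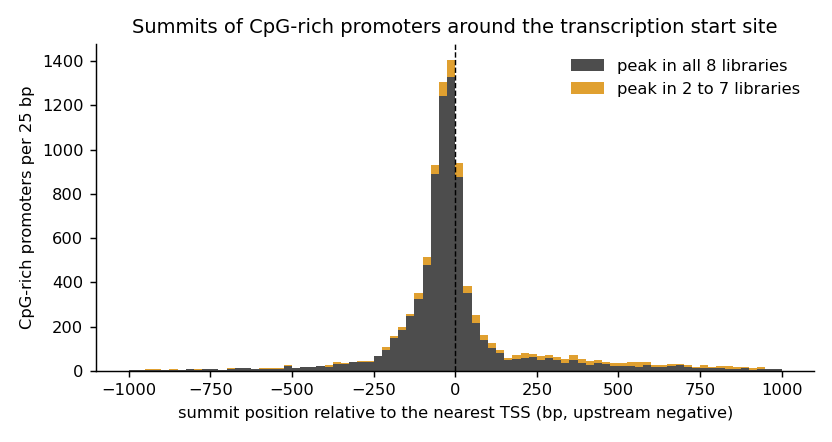
Number of CpG-rich promoters per 25 bp of summit position relative to the nearest protein-coding TSS (bp, upstream negative), stacked by the number of libraries with a peak. Most summits sit just upstream of the TSS, with a median of -23 bp, and regions with a peak in 2 to 7 libraries are spread over the whole window.

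Regions on either side of the limits of the rule were of similar height. The 247 regions with a GC content of 55% to 56% had a median of 131.7 scaled tags, and the 225 promoters just below, at 54% to 55%, had 132.9 (over those with a peak in every library). The median difference between genotypes, KO minus WT on the log2 scale, was 0.10 and 0.11 in these groups. At the CpG ratio the medians were 116.5 scaled tags just inside (0.60 to 0.62, 215 regions) and 111.9 just outside (0.58 to 0.60, 190 regions). The median difference between genotypes was 0.11 just inside that limit and 0.08 just outside. Across the 8070 shared promoters, height was almost unrelated to CpG ratio (Spearman's rho = -0.0072) and weakly related to GC content (-0.111) and to width (0.205). These values are across regions of the same libraries, which are not independent replicates. Promoters read in both directions were higher, with a median of 168.3 scaled tags against 129.0 for the rest.

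Motif content followed the CpG-rich sequence in part, because the rule used that sequence. Both strands of the 201 bases centred on each summit were searched, and the same length was searched next to the TSS in all 32851 promoters of the RefSeq table. GGGCGG, the core of SP/KLF sites, was found at 72.0% of CpG-rich promoters, 27.2% of CpG-poor promoters, 6.92% of distal regions and 32.2% of RefSeq promoters. GCCAAT, bound by NFY, was found at 17.6%, 12.1%, 6.73% and 11.6%. CpG-rich promoters with GCCAAT had the taller summits, at a median of 221.5 scaled tags against 118.8 without it. The ETS pattern CCGGAAGT was found at 7.89% of CpG-rich promoters and 3.42% of RefSeq promoters, and the palindrome CTCGCGAG at 1.81% and 0.767%. Among patterns of macrophage and signal-dependent factors, those of PU.1, AP-1, RUNX and STAT had lower shares than in distal regions, and that of CREB a higher one. GAGGAAGT, bound by the macrophage factor PU.1, was found at 2.04% of CpG-rich promoters, 12.6% of distal regions and 2.41% of RefSeq promoters. The AP-1 pattern TGANTCA was found at 2.60%, 14.0% and 5.39%, the RUNX pattern TGTGGTT at 1.53%, 10.6% and 3.53%, and the STAT pattern TTCNNNGAA at 2.71%, 6.54% and 5.45%. The CREB pattern TGACGTCA was found at 3.10% of CpG-rich promoters, 0.516% of distal regions and 1.61% of RefSeq promoters. The C/EBP pattern TTGCGCAA was rare in each, at 0.177%, 0.154% and 0.131%, and was found at 0.248% of CpG-poor promoters. Pairs of AGGTCA in 1 orientation are the kind of element bound by RXR with a partner. With 1 base between the repeats (DR1, at most 2 mismatches) they were found at 1.22% of CpG-rich promoters, 4.78% of distal regions and 2.58% of RefSeq promoters, and with 4 bases between them (DR4) at 0.975%, 2.95% and 2.05%. None of the other patterns contains GGGCGG, and DR1 and DR4 share the AGGTCA unit. A match describes letters and does not show binding.

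The labels were checked at marker genes. A promoter peak was present in all 8 libraries at 21 of 23 AM markers, among them Siglecf, Marco, Car4 and Pparg. Chil3 and Krt79 had none. No T cell marker of 5 had a promoter peak, and 1 of 5 B cell markers (Ebf1), 2 of 5 neutrophil markers (S100a8 and Mmp8), 2 of 5 epithelial markers (Epcam and Scgb1a1), 1 of 4 endothelial markers (Pecam1) and 2 of 3 fibroblast markers (Col1a1 and Pdgfra) had one in all libraries. Mmp8 was listed here as a neutrophil marker, but the study counts it among AM-core genes. The defining genes Cd3e, Ly6g, Sftpc and Cdh5 had no promoter peak in any library. The lists held 60363 to 72484 peaks, the background was 1.12 to 2.26 tags per 200 bp, and the smallest summits listed rested on 6 to 9 tags, so weaker sites could not be listed at this depth.

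AM markers with a CpG-rich promoter, among them Pparg, Cebpb and Bhlhe41, gave no call in either direction. Pparg, which encodes the partner of RXR that AMs need, had 82.4, 87.6, 99.0 and 85.2 scaled tags in KO replicates 1_2, 1_3, 2 and 3 and 88.7, 80.9, 94.0 and 103.5 in WT replicates 1_2, 1_3, 3 and 4. This is not the taller promoter of Pparg, which missed the GC or CpG limit and had a mean of 201 unscaled tags. At the CpG-rich one the groups overlapped, with a difference of -0.05 ± 0.12 on the log2 scale (KO minus WT ± SE, limma, adjusted p = 0.834). Cebpb, a macrophage transcription factor gene, differed by 0.08 ± 0.10 (adjusted p = 0.657), and Bhlhe41, a regulator of AM identity, by 0.08 ± 0.12 (adjusted p = 0.701). Csf2ra, the receptor chain for GM-CSF, differed by 0.11 ± 0.09 (adjusted p = 0.452), Fabp5, a fatty acid binding protein, by 0.09 ± 0.10 (adjusted p = 0.604) and Car4, a carbonic anhydrase, by -0.21 ± 0.17 (adjusted p = 0.435).

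The deleted genes kept open promoters. At Rxra (chr2:27676752-27677903, summit 105 bp upstream of the TSS) the KO libraries had 47.6, 39.3, 33.8 and 45.0 scaled tags and the WT libraries 30.8, 31.1, 34.6 and 40.5. The groups overlapped (difference 0.27 ± 0.17, adjusted p = 0.331). At Rxrb and Slc39a7 (chr17:34031472-34032510) the KO libraries had 121.1, 127.9, 133.8 and 117.2 scaled tags and the WT libraries 105.1, 106.1, 123.2 and 133.8, a difference of 0.10 ± 0.10 (adjusted p = 0.583). The position of the floxed parts was not worked out here, so these promoters are no test of the deletion.

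The main comparison asked whether loss of RXR changed the accessibility of CpG-rich promoters. As a class they stood higher relative to distal regions in KO than in WT. The median log2 tags of CpG-rich promoters minus that of distal regions was 1.43, 1.36, 1.42 and 1.36 in KO replicates 1_2, 1_3, 2 and 3, and 1.24, 1.20, 1.26 and 1.31 in WT replicates 1_2, 1_3, 3 and 4. All 4 KO values were above all 4 WT values. The means were 1.39 ± 0.039 and 1.25 ± 0.046 (SD, n = 4 each), a difference of 0.14 (two-sided exact permutation p = 0.0286, which is the smallest that 70 labelings allow, and adjusted p = 0.0857 over the 9 measures compared). Measured against CpG-poor promoters the gap was 0.63 ± 0.0083 in KO and 0.55 ± 0.029 in WT, again with all KO libraries above all WT libraries (exact permutation p = 0.0286, adjusted p = 0.0857). CpG-rich promoters held 28.5% ± 0.492 of autosomal summit tags in KO and 26.6% ± 0.861 in WT (exact permutation p = 0.0286, adjusted p = 0.0857). None of these passed the adjustment. Replicates 1_2 and 1_3 of a genotype were counted as separate samples. If they are 1 animal, an exact permutation p cannot go below 0.1. Without any 1 KO library the difference in tag share had an exact permutation p of 0.0571. Each library is a bulk sample, so a larger share of cells with an open promoter and a more open promoter in each cell cannot be told apart, and a gap between classes does not show which class moved.

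The gap to distal regions differed between genotypes by a like amount when both classes were limited to a range of GC content or height. Among regions with a GC content of 55% to 65% (3986 CpG-rich promoters and 1976 distal regions) it was 1.22 ± 0.033 in KO and 1.08 ± 0.034 in WT. Among regions between 73.9 and 222.8 scaled tags (4034 and 8392) it was 0.25 ± 0.034 and 0.12 ± 0.016, and with each library's background tags subtracted it was 1.42 ± 0.043 and 1.28 ± 0.046. All KO libraries were above all WT libraries in each case (exact permutation p = 0.0286, not adjusted), and these 3 settings were chosen after the data were seen. The classes were not matched inside a range. At 55% to 60% GC there were 1581 CpG-rich promoters and 1657 distal regions. The part of GC content or height in the gap was not tested. The slope of log2 tags on GC content, over all shared regions, was 0.422 ± 0.016 per 10 percentage points in KO and 0.389 ± 0.026 in WT, and the groups overlapped (exact permutation p = 0.0857, adjusted p = 0.154).

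**Figure D2:**
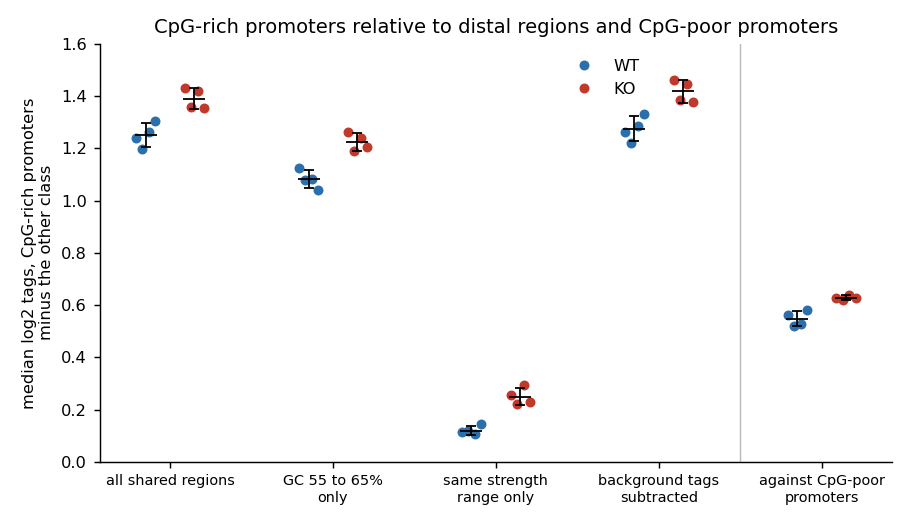
Median log2 tags of CpG-rich promoters minus that of distal regions, over all shared regions and in 3 other settings, and minus that of CpG-poor promoters (right of the line). Points are libraries, bars the mean ± SD of 4 libraries per genotype. In each setting the 4 KO libraries sit above the 4 WT libraries.

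The other measures of the class overlapped between genotypes. A peak was listed at 8516 ± 63.4 CpG-rich promoters in KO and 8693 ± 162 in WT (exact permutation p = 0.0571). Without WT replicate 4 this difference of -176.8 became -236.3, with an exact permutation p of 0.0286. It shrank to -106.9 without WT replicate 1_3 (exact permutation p = 0.143). With lists reduced to equal length it was -51.75 (exact permutation p = 0.286). The median peak width was 558 ± 29.8 bp in KO and 582 ± 59.8 bp in WT (exact permutation p = 0.657), and the median fold enrichment over background was 15.1 ± 0.327 and 14.7 ± 0.449 (exact permutation p = 0.2). The share of autosomal peaks that lay at CpG-rich promoters was 15.1% ± 0.311 and 14.5% ± 1.02 (exact permutation p = 0.343), and the median percentile of their strength within a list was 79.1 ± 0.488 and 78.2 ± 1.44 (exact permutation p = 0.257). Without WT replicate 1_3, or with lists reduced to equal length, the difference in percentile was 1.62 or 1.501 with an exact permutation p of 0.0286, and without WT replicate 4 it was 0.520. WT replicate 1_3 also carried much of the other differences. Without it the difference in the share of peaks fell from 0.644 to 0.186 percentage points, that in fold enrichment from 0.449 to 0.241, and that in width turned from -23.8 to 4 bp. The share of peaks differed by 0.996 points without WT replicate 4, and the width by -11.8 bp without KO replicate 3, -36.1 bp without KO replicate 2 and -41.3 bp without WT replicate 4. With all libraries and full lists, none of these measures passed the test.

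Single promoters were tested with limma on log2 scaled tags across all 47499 regions with a peak in all 8 libraries. At an adjusted p under 0.05, 622 of 8070 CpG-rich promoters (7.71%) were higher in KO and 135 (1.67%) were lower. The other 956 CpG-rich promoters, missing from at least 1 list, were left untested. A promoter that dropped below the listing threshold in KO could therefore not be called lower, nor one that did so in WT called higher. The balance of calls holds only for the promoters tested. Over all regions tested 5.81% were higher and 7.03% lower. The distal regions were higher at 5.41% and lower at 9.16%, and CpG-poor promoters at 4.84% and 3.95%. The median difference was 0.11 on the log2 scale in CpG-rich promoters, 0.06 in CpG-poor promoters, 0.01 in distal regions and 0.04 over all regions. When libraries were instead centred on the CpG-rich promoters themselves, the balance of the calls turned to 120 higher (1.49%) and 268 lower (3.32%), against 2.45% and 12.5% of all regions, and the median over all regions was -0.07. With a correction for GC content in each library it was 134 higher and 255 lower. At 65% to 70% GC the regions tested were 2200 CpG-rich promoters, 62 CpG-poor promoters and 113 distal regions. That correction therefore partly centred CpG-rich promoters on themselves. The number called higher also ranged from 312 without KO replicate 2 to 955 without WT replicate 4, whereas the number called lower ranged from 103 to 127.

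Few of the called promoters differed by a large amount. Of the called promoters, 71 were higher and 92 lower by over 0.5 on the log2 scale, and 2 were higher and 16 lower by over 1. These are counts among 8070 CpG-rich promoters. Among all 47499 regions tested, 1289 were called higher and 2203 lower by over 0.5, and 146 higher and 281 lower by over 1. All 120 promoters called higher with centring on CpG-rich promoters were also called higher with centring on all regions, and all 135 called lower with centring on all regions were also called lower with centring on CpG-rich promoters. Split by height into 4 equal groups, the weakest (median 47.2 scaled tags) had 77 higher (3.82%) and 82 lower calls (4.06%) among 2018. The strongest group (median 304.1) had 192 higher (9.51%) and 5 lower calls (0.248%) among 2018. Promoters read in both directions had 63 higher (7.17%) and 2 lower calls (0.228%) among 879. Of all CpG-rich promoters tested, 7.71% were higher and 1.67% lower. The median difference was similar over the range of CpG content, from 0.10 at a CpG ratio of 0.6 to 0.7 to 0.11 at a ratio over 1.0, and of GC content, from 0.10 at 55% to 60% to 0.09 over 75%. By distance to the TSS it was 0.12 for summits within 100 bp and 0.04 for the 423 beyond 500 bp. Promoters with GGGCGG near the summit were called higher at 8.86% and those without at 4.66%, and promoters with CCGGAAGT at 3.26% and those without at 8.13%. Of 104 promoters with a DR1 pair, 5 were higher (4.81%) and 1 lower (0.962%).

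**Figure D3:**
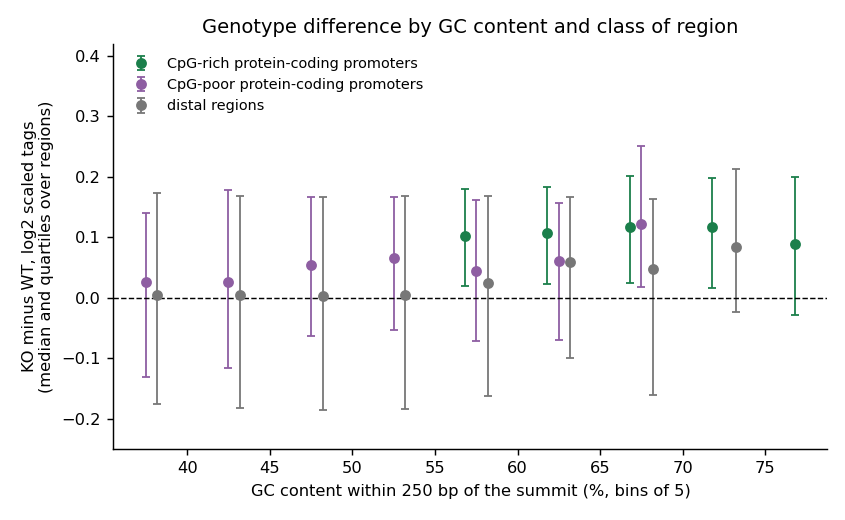
Difference between genotypes (KO minus WT, log2 scaled tags, libraries centred on all shared regions) in bins of 5 percentage points of GC content for 3 classes of region. Points are medians and bars the quartiles over regions. The CpG-rich promoters have medians of 0.09 to 0.12 in every bin, and distal regions of 55% to 65% GC have medians of 0.02 and 0.06. In the bins of highest GC shown, 62 CpG-poor promoters of 65% to 70% have a median of 0.12 and 55 distal regions of 70% to 75% one of 0.08.

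Among the losses with the smallest adjusted p were Plcl1 and Pmepa1, which differed by more than 4-fold. At Plcl1, a phospholipase C relative without catalytic activity (chr1:55405500-55406309), the KO libraries had 59.6, 50.4, 54.0 and 58.0 scaled tags and the WT libraries 261.4, 247.3, 255.5 and 260.8. The KO values were lower by -2.20 ± 0.10 on the log2 scale (adjusted p = 9.31e-22). Pmepa1, a TGF-beta target whose product dampens TGF-beta signalling (chr2:173276370-173276804), had the largest difference among CpG-rich promoters. It had 17.9, 11.1, 11.3 and 13.1 scaled tags in KO and 109.9, 98.7, 129.6 and 154.0 in WT, or -3.16 ± 0.18 (adjusted p = 6.78e-19). Promoters were named here only if the genotypes did not overlap, so the lack of overlap was fixed by the choice. At Pmepa1 the KO summits were near the smallest in the lists.

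Another 7 promoters lower in KO fell by smaller amounts. Nsmf, which encodes a synapse-to-nucleus messenger protein, had 46.1 to 59.2 scaled tags in KO and 103.9 to 151.4 in WT (-1.26 ± 0.13). Inpp4b, a phosphatase of phosphoinositides, had 111.8 to 138.5 in KO and 218.4 to 291.3 in WT (-0.98 ± 0.10). Edil3, a secreted integrin ligand, had 10.2 to 22.8 in KO and 45.0 to 63.6 in WT (-1.79 ± 0.20). At Smyd2, a lysine methyltransferase gene, the ranges were 15.1 to 22.8 and 43.7 to 58.4 (-1.40 ± 0.19). Foxp4, a forkhead transcription factor gene, had 30.8 to 40.3 in KO and 60.7 to 90.0 in WT (-1.08 ± 0.16), and Sh3bp4, an endocytic adaptor gene, 48.6 to 56.3 and 79.4 to 128.3 (-0.97 ± 0.13). Endod1 had 103.5 to 123.1 in KO and 187.1 to 200.1 in WT (-0.74 ± 0.09). The adjusted p of these 7 lay between 2.86e-10 at Nsmf and 1.53e-06 at Foxp4.

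The largest gains among called promoters were at Fam20c and Sash1. Fam20c encodes the Golgi kinase that phosphorylates secreted proteins, and its open region (chr5:138754330-138755201) had its summit in an exon, 452 bp downstream of the TSS. It had 131.0, 125.9, 158.5 and 136.1 scaled tags in KO and 49.2, 39.3, 37.4 and 47.3 in WT, a difference of 1.66 ± 0.13 (adjusted p = 6.55e-14). At Sash1, an adaptor gene with an SH3 domain (chr10:8885753-8886566), the KO libraries had 88.3, 79.6, 109.1 and 105.3 scaled tags and the WT libraries 17.3, 23.7, 32.8 and 38.3. The difference was 1.80 ± 0.17 (adjusted p = 1.13e-10). Elovl7, an elongase of long-chain fatty acids (chr13:108214093-108214924), had 148.9, 155.1, 146.2 and 143.2 scaled tags in KO and 92.6, 83.8, 81.2 and 87.7 in WT (0.78 ± 0.10, adjusted p = 2.15e-07).

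The other 7 gains ranged from 0.48 to 0.99 on the log2 scale. Socs3, an inhibitor of cytokine receptor signalling, had 199.5 to 250.7 scaled tags in KO and 126.2 to 167.5 in WT (0.62 ± 0.10). Bbc3, which encodes the pro-apoptotic protein PUMA, had 110.1 to 132.7 and 66.6 to 83.2 (0.69 ± 0.11). Sema3e, a secreted guidance cue, had 100.6 to 134.9 in KO and 70.5 to 84.4 in WT (0.69 ± 0.12), and Cd24a, a surface glycoprotein, 42.3 to 65.1 and 24.4 to 31.5 (0.99 ± 0.17). Rab22a, a GTPase of endosomes, had 204.5 to 261.9 and 146.3 to 166.4 (0.55 ± 0.09). At Uxs1, which makes UDP-xylose for proteoglycans, the ranges were 213.0 to 241.7 and 154.4 to 168.8 (0.48 ± 0.09). The region of Dusp18, a protein phosphatase gene, had 102.8 to 119.5 in KO and 59.8 to 77.5 in WT (0.65 ± 0.12) and also covered the start of 4921536K21Rik. The adjusted p of these 7 lay between 5.19e-06 at Socs3 and 8.56e-05 at Dusp18. Of the promoters described here in both directions, Uxs1 alone lost its call under any of the 17 or 18 alternative fits, and it did so only when libraries were scaled by background tags (adjusted p = 0.0917).

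**Figure D4:**
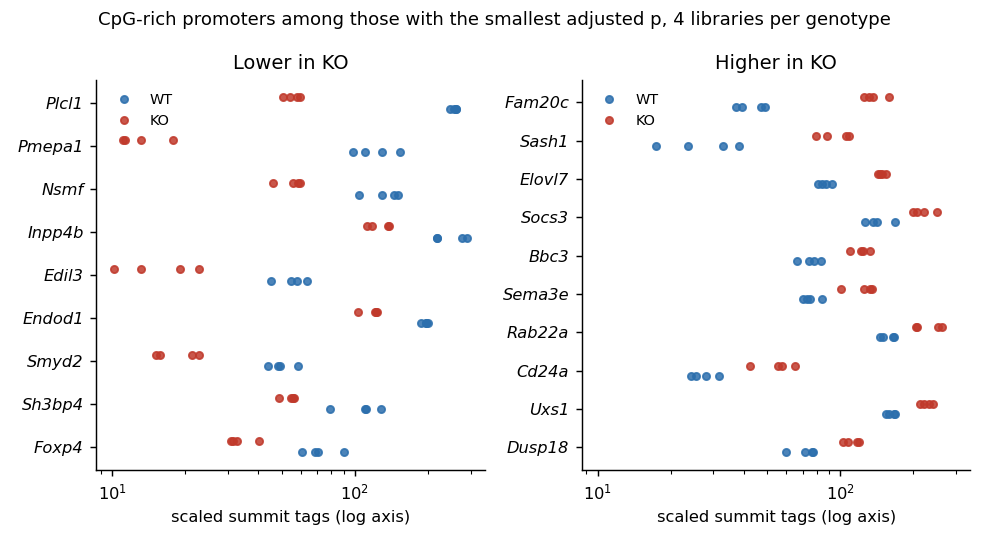
Scaled summit tags (log axis) of 9 CpG-rich promoters lower in KO (left) and 10 higher in KO (right), taken from those with the smallest adjusted p whose genotypes did not overlap. Each point is a library, 4 KO in red and 4 WT in blue. The losses at Plcl1 and Pmepa1 and the gains at Fam20c and Sash1 are wider than the spread of either group.

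Promoters listed in 1 genotype alone were few. A peak in all 4 WT libraries and no KO library was found at 14 CpG-rich promoters (0.155%), against 0.82% of all regions, and the reverse at 0, against 0.285% of all regions. With lists reduced to equal length the counts were 10 and 3. By the strength of the WT summit the leading ones were Tcp11, with 27, 42, 27 and 25 unscaled tags in WT replicates 1_2, 1_3, 3 and 4, Tigd5 with 27, 43, 31 and 24, and Kctd1 with 28, 33, 33 and 18. The others named by the rule were Lpar1, Bok, Prdm8, Chgb, Cfap300, Npy and Galnt12, with 12 to 35 tags. Lpar1 encodes a receptor for lysophosphatidic acid, Bok a member of the BCL2 family and Npy a neuropeptide. These summits were only a few times the smallest that could be listed, and a missing peak in KO means that the threshold was not reached. A further 50 CpG-rich promoters had a peak in 3 WT libraries and no KO library, and 100 in 2 WT libraries and no KO library. The reverse was found at 2 and 14. None of these promoters could enter the limma test, and list length was not made equal for these further counts.

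The promoters that changed were compared with the nearest distal region within 50 kb. Of 74 promoters called lower with such a region, the distal region was called lower at 29 (39.2%) and higher at 0, with a median difference of -0.28. Of 500 promoters called higher, it was called lower at 25 (5.0%) and higher at 36 (7.20%), with a median of 0.04. Over all 6076 shared promoters with a distal region in range the shares were 7.16% lower and 4.67% higher. The promoter and its neighbour were measured in the same libraries.

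Gene lists were then read at CpG-rich promoters, of which 7.71% were called higher and 1.67% lower, against 5.81% and 7.03% of all regions. A share near these is not a result about a list, and each list holds few promoters. Several calls rest close to the threshold: of the 59 named promoters that were called, 2 (without WT replicate 4) to 20 (without KO replicate 2) lost the call when 1 library was left out. Scaling by background tags lost 36 of the 59, centring on CpG-rich promoters 30, and averaging 1_2 and 1_3 of each genotype 14. At least 68.4% of the genes in each list of widely expressed genes had such a promoter, and few were called. Cytosolic ribosomal protein genes had 55 promoters tested, of which 2 were higher (Rpsa, 0.37 ± 0.10, and Rpl22, 0.27 ± 0.09) and 0 lower. Mitochondrial ribosomal protein genes had 4 higher of 63, with Mrpl39 at 0.33 ± 0.09, and respiratory chain and ATP synthase genes 3 higher of 63, with Uqcrq at 0.30 ± 0.09. Proteasome genes had 1 higher of 30 (Psmd5), spliceosome genes 1 of 53 (U2af1), tRNA synthetase genes 0 of 30, and heat shock and unfolded protein response genes 1 of 23 (Hsp90aa1). None of these lists had a promoter called lower by limma or lower at an unadjusted p under 0.05, and none kept a call when libraries were centred on CpG-rich promoters. The tRNA synthetase list had 6 promoters higher at an unadjusted p under 0.05.

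Lipid gene lists also held few calls. Of 22 sterol and fatty acid synthesis promoters, 2 (9.09%) were lower and 0 higher, where 7.03% of all regions and 1.67% of CpG-rich promoters were lower, with both calls kept under centring on CpG-rich promoters. Fatty acid oxidation and lipid droplet genes had 4 of 25 higher (16.0%, against 7.71% of CpG-rich promoters) and 0 lower, including Hadh (0.41 ± 0.11) and Cpt2 (0.31 ± 0.09), enzymes of mitochondrial fatty acid oxidation, and Soat1 (0.37 ± 0.11), which esterifies cholesterol. None of the 4 was called with centring on CpG-rich promoters. Among genes that the study named as direct RXR targets, chosen with its own data and so not independent evidence, 10 promoters were tested and 1 was called. This was Abca1, the cholesterol efflux pump regulated by liver X receptor and RXR. It had 190.6, 177.3, 170.9 and 194.0 scaled tags in KO and 130.2, 135.1, 130.5 and 118.1 in WT, with no overlap (0.51 ± 0.09, adjusted p = 9.23e-05). The call was lost when libraries were scaled by background tags (0.46, adjusted p = 0.0719).

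Nuclear receptor and signalling genes gave mixed results. Of 28 promoters of nuclear receptors and their cofactors, 2 were higher and 2 lower (7.14% each), and both lower calls were kept with centring on CpG-rich promoters. All CpG-rich promoters had 7.71% higher and 1.67% lower, and all regions 5.81% and 7.03%. Ncoa2, a coactivator of nuclear receptors, had 75.4, 58.4, 68.6 and 55.7 scaled tags in KO and 86.8, 89.0, 98.5 and 108.0 in WT (-0.57 ± 0.13, adjusted p = 0.00138). Its summit, 368 bp upstream of the TSS, had a DR1 match within 100 bp. Such a match allows up to 2 mismatches and does not show binding. Of 104 tested promoters with one, 0.962% were lower, against 1.68% of those without. Thrb, a thyroid hormone receptor gene, was lower by -0.59 ± 0.17 (adjusted p = 0.0158), and Rarg, a retinoic acid receptor gene, higher by 0.47 ± 0.13 (adjusted p = 0.0116), which was lost with centring on CpG-rich promoters (adjusted p = 0.0622). Notch, TGF-beta and GM-CSF signalling genes had 4 of 31 higher (12.9%), including Socs3 and Ski (0.30 ± 0.09), and 1 lower (3.23%), the TGF-beta mediator Smad3 (-0.71 ± 0.20). With centring on CpG-rich promoters the balance turned to 1 higher and 2 lower, and Ski was no longer called (adjusted p = 0.123). The adjusted p of Thrb was 0.0532 without KO replicate 2, 0.0701 without KO replicate 3 and 0.0615 without WT replicate 4. That of Smad3 was 0.0672 without KO replicate 1_3, 0.0529 without KO replicate 2 and 0.0544 without WT replicate 1_2, and that of Rarg was 0.092 without WT replicate 1_2. Apoptosis genes had 5 of 20 higher (25.0%, against 7.71% of CpG-rich promoters and 5.81% of all regions) and 0 lower. They included Bbc3, Bcl2l11 (0.30 ± 0.09), another pro-apoptotic gene, and Birc5 (0.38 ± 0.11), which opposes apoptosis and serves in cell division, and 1 call was kept with centring on CpG-rich promoters.

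The remaining lists held few calls. The share called higher went from 0% (interferon and NF-kappaB response) to 13.3% (NRF2 and iron), with 8.33% for DNA replication and cell cycle. Of all CpG-rich promoters 7.71% were higher and 1.67% lower, and of all regions 5.81% and 7.03%. DNA replication and cell cycle genes had 3 of 36 higher, Cdk4 (0.39 ± 0.11), the inhibitor Cdkn1a (0.41 ± 0.11) and Ccne1 (0.31 ± 0.09), V-ATPase and lysosome genes 3 of 25, Ctsd, Psap and Atp6v1b2, and glycolysis and hypoxia genes 2 of 23, Epas1 and Pdk1. With centring on CpG-rich promoters, none of these 3 lists had a call. The NRF2 and iron list had 2 of 15 higher, the ferritin chains Ftl1 and Fth1. With that centring both calls were lost (adjusted p = 0.192 and 0.305) and the list had 0 higher and 1 lower. Immediate early and AP-1 genes had 1 of 24 (Btg2) and circadian clock genes 1 of 16 (Ciart). Centred on CpG-rich promoters, the first list had no call and the second 0 higher and 1 lower (adjusted p of 0.144 at Btg2 and 0.189 at Ciart). The call at Ciart was also lost without any 1 of KO replicates 1_2, 2 and 3 and of WT replicates 1_2, 1_3 and 3 (adjusted p of 0.0524 to 0.186). Interferon and NF-kappaB response genes had 0 of 21 in either direction by limma, with 2 higher at an unadjusted p under 0.05 and a median difference of 0.07. Among 33 chromatin regulator promoters, 1 was higher. It was Dnmt1, the maintenance DNA methyltransferase, with 105.2, 111.8, 109.1 and 126.6 scaled tags in KO and 79.1, 74.2, 79.4 and 78.7 in WT (0.53 ± 0.11, adjusted p = 0.000611), and the call was kept with centring on CpG-rich promoters. The call was lost when libraries were scaled by background tags (0.48, adjusted p = 0.0838).

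Developmental homeobox and lineage factor genes had the lowest median difference of the 22 lists. Of 152 such genes on autosomes, 50 had a CpG-rich promoter in the peak lists, at 58 regions, and 33 regions had a peak in all 8 libraries, so the values describe the open ones. Their median height was 34.5 scaled tags, against 132.5 for all CpG-rich promoters. The median difference was -0.15, and 22 of 33 were below 0. Called lower were Sox4 (-0.59 ± 0.14), Sox12 (-0.33 ± 0.09) and Sox6 (-0.65 ± 0.20), transcription factor genes of the SOX family, and 1 region was called higher. With centring on CpG-rich promoters 6 were lower and 0 higher, and at an unadjusted p under 0.05, with centring on all regions, 9 were lower and 2 higher. Centred on CpG-rich promoters, 3.32% of all CpG-rich promoters and 12.5% of all regions were lower. The call of Sox6 was lost without any of KO replicates 1_3 and 2 and WT replicates 1_2 and 1_3 (adjusted p of 0.061 to 0.0969). Scaling by background tags lost the calls of Sox6 (adjusted p = 0.0565) and Sox12 (adjusted p = 0.164). Sox4 had 48.6, 56.4, 43.9 and 49.8 scaled tags in KO and 79.1, 67.5, 64.8 and 91.1 in WT, with no overlap.

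**Figure D5:**
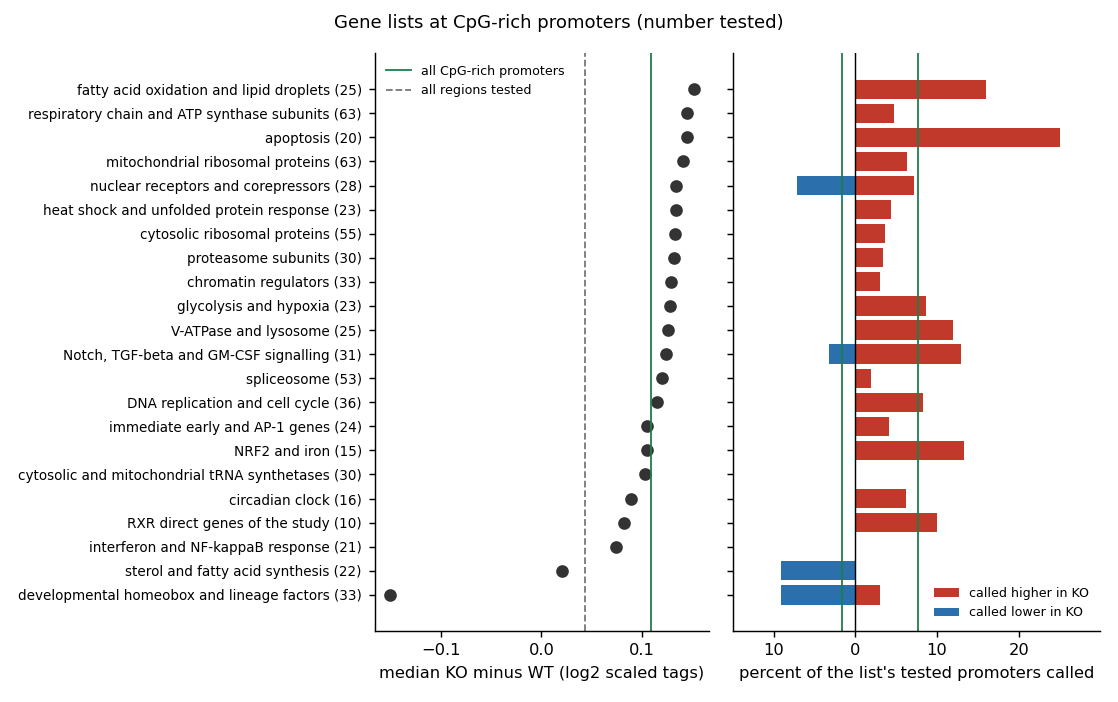
Left, the median difference between genotypes (KO minus WT, log2 scaled tags) of each gene list at CpG-rich promoters, with the number of promoters tested in parentheses. The lines mark all CpG-rich promoters (0.11) and all regions tested (0.04). Right, the percentage of each list called higher (red) or lower (blue) in KO, with green lines at the shares of all CpG-rich promoters, 7.71% and 1.67%.

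None of the 5 most accessible promoters was called. Pja2, a ubiquitin ligase gene, had 881.5, 761.6, 917.2 and 913.0 scaled tags in KO and 818.9, 731.1, 801.3 and 883.5 in WT (0.10 ± 0.07, adjusted p = 0.387). Mtmr4, a phosphoinositide phosphatase gene, differed by 0.11 ± 0.07 (adjusted p = 0.340) and Dnpep, an aspartyl aminopeptidase gene, by 0.04 ± 0.08 (adjusted p = 0.787). The region shared by Kctd9 and Cdca2 differed by 0.09 ± 0.07 (adjusted p = 0.462) and Ifrd1 by 0.06 ± 0.07 (adjusted p = 0.621).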

How the data were processed

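Nuclei of AMs were tagmented and sequenced in paired-end mode, and 1 peak list per library was available. Per the study's methods, the authors trimmed adapters (Cutadapt), aligned reads to mm10 (Bowtie2), removed duplicates and reads of low mapping quality, and called peaks per library with MACS3 on reads shifted and extended to 200 bp around the cut. The deposited columns give the fold enrichment at the summit (a ratio to the local background), the −log10 p-value and −log10 q-value, a display score that was not used, and the summit. A deeper library reaches the threshold with less enrichment, so a missing peak is not a closed site.

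Summit tags were worked back from the deposited fold and −log10 p-value, which gave whole tags for 100% of peaks (relative error under 1e-05). The authors tested read counts with edgeR, a test that could not be applied to peak lists. Here log2(tags + 0.5) was taken at the 47499 regions found in every library, the median of each library was subtracted, and genotypes were compared with limma 3.58.1 (trended variance, Benjamini-Hochberg over all regions), a procedure checked on simulated tags. A fold change on this scale understates changes of low summits. Scaled tags add back the common level. Exact permutation over 70 labelings was used for measures with 1 value per library. TSS came from GENCODE M21 (basic set), sequence from GRCm38.p6. Groups and replicate names came from sample titles, and nothing used here ties libraries to animals (1_2 and 1_3 may be 1 animal), so p-values measure the spread between these libraries, which may be technical. Regions, lists and tests were chosen with earlier results of these data known. Promoters were named by rule: the deleted genes, the 10 calls in each direction with the smallest adjusted p and no overlap, up to 3 calls of each list, the 5 strongest, up to 10 open in 1 genotype alone, and AM markers. Some of these are not reported here. Alternatives covered scaling, pseudocount, low values, GC content, the limits of the rule, replicates and list length.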

Additional observations from a re-analysis of the deposited data

Results flagged for a closer look

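In groups of 4 libraries, a value was looked at again when its distance to the nearest of the others was over 0.829 of the whole range of the group. Of 162 groups examined, 3 met this limit, where chance gives about 1 in 20. At Endod1, KO replicate 2 had 103.5 scaled tags and the other KO libraries 120.9 to 123.1. At Soat1, KO replicate 3 had 137.3 scaled tags and the other KO libraries 116.9 to 120.3. At Dnmt1, WT replicate 1_3 had 74.2 scaled tags and the other WT libraries 78.7 to 79.4. The 3 values come from 3 different libraries.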

How the results depend on the processing

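With centring on all regions, 622 CpG-rich promoters were called higher and 135 lower, with a median difference of 0.11. The median was 0.0755 with total summit tags. Quantile normalisation gave 396 higher and a median of 0.0684, centring on CpG-rich promoters 120 higher, 268 lower and a median of -0.0047, and a GC correction 134 higher, 255 lower and a median of 0.0043. The GC correction made medians within bins of GC content equal between libraries, and the bins of high GC held mostly CpG-rich promoters. Scaling by background tags gave 19 higher, 73 lower and a median of 0.0555. A CpG ratio over 0.8 left 5063 promoters, with 380 higher and 70 lower. Higher calls took 82.2% of all calls at first, 72.6% with total tags, 71.9% with quantile normalisation, 30.9% with centring on CpG-rich promoters, 34.4% with the GC correction and 20.7% with background tags. The cause was not tested.

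Leaving out 1 library at a time gave 312 to 955 promoters higher. The lowest was without KO replicate 2 and the highest without WT replicate 4, with 373 without KO replicate 1_2, 348 without KO replicate 3, 391 without WT replicate 1_3 and 365 without WT replicate 3. The difference in promoters with a peak ranged from -236.3 to -106.9, in tag share from 1.47 to 2.16 percentage points, in median percentile from 0.520 to 1.62 and in GC slope from 0.025 to 0.043. With lists of equal length the difference in percentile was 1.501 and 3 promoters were KO-only, and with a −log10 q of at least 5 there was 1 KO-only promoter. The gaps to distal regions and to CpG-poor promoters kept their direction and an exact permutation p of 0.0286 without each library in turn.

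The labels do not say whether same-named libraries of the 2 genotypes are paired. Their deviations correlated weakly, by 0.0555 (1_2), 0.116 (1_3) and 0.0368 (3), but each of the 3 correlated best with its own name. Whether this reflects pairing was not tested. With the replicate block 1043 promoters were higher and 129 lower, and the gap to distal regions within names was 0.15, where an exact test by sign flips cannot go below p = 0.25. With 1_2 and 1_3 of each genotype averaged, 430 promoters were higher and 110 lower. The gap to distal regions was then 0.13, where an exact permutation test cannot go below p = 0.1.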

Other observations

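Calls were also counted by width and by number of TSS positions, with no test of the difference. Of all CpG-rich promoters tested 7.71% were called higher in KO and 1.67% lower. Of 1508 CpG-rich promoters wider than 1 kb, 115 (7.63%) were called higher and 17 (1.13%) lower, with a median difference of 0.11, and of 900 under 500 bp wide, 44 (4.89%) were higher and 25 (2.78%) lower, with a median of 0.08. The wide ones had a median of 149.4 scaled tags, against 132.5 for all. Promoters with several TSS positions had 342 higher (7.91%) and 68 lower calls among 4321, and those with 1 position 280 (7.47%) and 67 among 3749, both near the share of all. The part of height in these counts was not tested.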
